A study of Homo sapiens with 12 samples.

Results

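The quantity described here is the difference between 2 responses to temozolomide (TMZ) in U-87 MG, a long-established line of human glioma cells. The response of a line is the log2 level with TMZ minus the log2 level with the vehicle DMSO, and the response of shControl cells was subtracted from that of shp105 cells. A positive value therefore means a higher TMZ response in shp105 cells, whether through a larger increase or a smaller decrease. Each gene was read from 1 probe set, the one with the highest mean among those with a single gene symbol. The genes described are the 9888 of 19775 whose mean log2 level over all 12 arrays was at or above that of the median gene, 6.34. That rule used the level and not the difference. Just inside it stood NDRG4, DAW1 and PRKCZ with differences of 0.38, -0.00 and -0.34, and just outside it GRK4, NPIPB15 and ZSCAN16-AS1 with 0.07, -0.10 and 0.16.

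Both lines were made by stable transfection, of a short hairpin RNA against p105 (shp105) or of a control hairpin (shControl). The number of clones behind each line is not given in the sources used here. Each line received 100 uM TMZ or DMSO for 16 h, which gave 4 groups of 3 Affymetrix arrays. The replicates are labelled as biological with no word on separate cultures or transfections, so p-values measure the spread between these samples, which may be technical. The series title sets cells with proficient NF-kB against cells with deficient NF-kB.

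TMZ methylates DNA bases, among them the O6 position of guanine. Unrepaired lesions of this kind activate the damage kinases ATR and ATM and the transcription factor p53, which switches on the cell-cycle inhibitor CDKN1A and a wide set of repair, arrest and death genes. NFKB1 encodes p105, from which the NF-kB subunit p50 is cut out, and p105 itself also holds NF-kB dimers and the kinase TPL2 in the cytoplasm. The integrated stress response is a separate branch of stress signalling in which phosphorylation of eIF2alpha favours translation of the transcription factor ATF4, which then activates DDIT3, CHAC1, TRIB3, ASNS and other genes.

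NFKB1, the gene the hairpin targets, was read by 1 probe set. Its log2 levels were 7.40, 7.23 and 7.34 in shControl cells with DMSO and 7.50, 7.45 and 7.30 with TMZ. In shp105 cells they were 7.17, 7.27 and 7.16 with DMSO and 7.14, 7.22 and 7.14 with TMZ. With DMSO the 2 lines overlapped, and with TMZ every shp105 array lay below every shControl array. The difference of responses was -0.13 (SE 0.10, adjusted p = 0.879).

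Array medians lay between 5.04 and 5.09, and 2 arrays of a group correlated at 0.996 to 0.998 across the 9888 genes. Arrays of different groups correlated at 0.972 to 0.997. Array weights, which are lower for noisier arrays, ran from 0.48 (shp105 TMZ replicate 2) to 1.86 (shControl TMZ replicate 1). The 18 hybridization spike-in probe sets averaged 10.63 and 10.95 in shControl cells with DMSO and TMZ and 11.13 and 11.32 in shp105 cells, a difference of responses of -0.13. The 3' minus 5' signal of ACTB is a sign of RNA quality. It averaged 3.02 and 2.85 in shControl cells with DMSO and TMZ and 3.07 and 3.06 in shp105 cells. The difference of responses was 0.16 for ACTB and -0.01 for GAPDH. Of the 11 mesenchymal and glial markers, VIM, CD44, FN1, TNC and SPARC were well expressed (9.62 to 14.8). The mesenchymal marker CHI3L1 at 5.88 and the glial markers GFAP, S100B, AQP4, OLIG2 and SOX2 at 3.10 to 5.11 lay below the median gene. For CHI3L1 that mean joins unlike lines. It averaged 4.71 and 4.46 in shControl cells with DMSO and TMZ, and 6.91 and 7.42 in shp105 cells, above the median gene. Of the markers of other cell types, 0 of 7 epithelial, 0 of 5 endothelial, 1 of 6 leukocyte and 3 of 5 neuronal genes reached the median gene. PTPRC, the defining leukocyte marker, stood at 3.06. In bulk RNA, fewer cells with a transcript and less of it per cell cannot be told apart.

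Of the 9888 genes, 0 passed an adjusted p of 0.05 for the difference of responses by limma with Benjamini-Hochberg adjustment over all 19775 genes, of which 0% passed. The smallest adjusted p was 0.104. At an unadjusted p under 0.05 there were 554 genes (5.6%), against 6.4% of all 19775 genes. In shp105 cells the response was higher for 412 of them (4.17%, against 4.02% of all genes) and lower for 142 (1.44%, against 2.38%). An ordinary linear model without moderation called 1 gene, PLK2. The differences ran from -0.61 to 0.71 with an SD of 0.11 across genes, and their median standard error was 0.09. Of the 9888 differences 5820 were positive, and the median was 0.02. Only 17 reached 0.5 in size, 14 of them positive.

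The 95% intervals show which sizes of difference these arrays bound. They lay within 1.5-fold (0.58 on the log2 scale) either way for 9698 of the 9888 genes and within 2-fold for 9886. Among the 9887 genes below the median level, 7676 had an interval within 1.5-fold, and the median standard error was 0.15. These intervals are not adjusted for the number of genes.

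Each line on its own did respond. In shControl cells 63 of the 9888 genes changed (0.637%), 44 up (0.445%) and 19 down (0.192%). In shp105 cells 142 changed (1.44%), 37 of them down (0.374%) and the others up (1.06%). Of all 19775 genes 0.369% and 0.865% did so. The lists shared 39 genes, 61.9% of the shControl list and 27.5% of the shp105 list, and all 39 had the same sign in both lines. Averaged over the lines, 577 of the 9888 genes changed with TMZ (5.84%, against 3.36% of all genes), 308 up (3.11%) and 269 down (2.72%). These counts moved with the settings. With the hybridization controls entered as a covariate, 0% of the 9888 genes passed in shControl cells, 0.121% in shp105 cells and 0.0405% on average. The level of these controls itself differed with treatment. It was 10.57 to 10.67 with DMSO and 10.84 to 11.01 with TMZ in shControl cells. In shp105 cells it was 11.01 to 11.20 and 11.18 to 11.43. That fit can therefore hardly tell the covariate from TMZ. With only the 2 groups of a line fitted 0.172% and 0.0202% passed. Without any 1 of the 6 shControl arrays the share in shControl cells was 0.152% to 0.273%. The share in shp105 cells fell to 0.425% to 0.951% without any 1 of its own arrays other than TMZ replicate 1, and without shControl DMSO replicate 3 or shControl TMZ replicate 1 or 3. The share on average was 1.87% to 3.76% without any 1 of the 6 shControl arrays or without shp105 DMSO replicate 2 or 3 or TMZ replicate 3, and lowest without shControl DMSO replicate 2. The responses of the 2 lines share no array. Across the 9888 genes they correlated at r = 0.60 (rho = 0.55), and across the genes below the median level at r = 0.13. These are correlations across genes, which are not independent replicates.

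**Figure D1:**
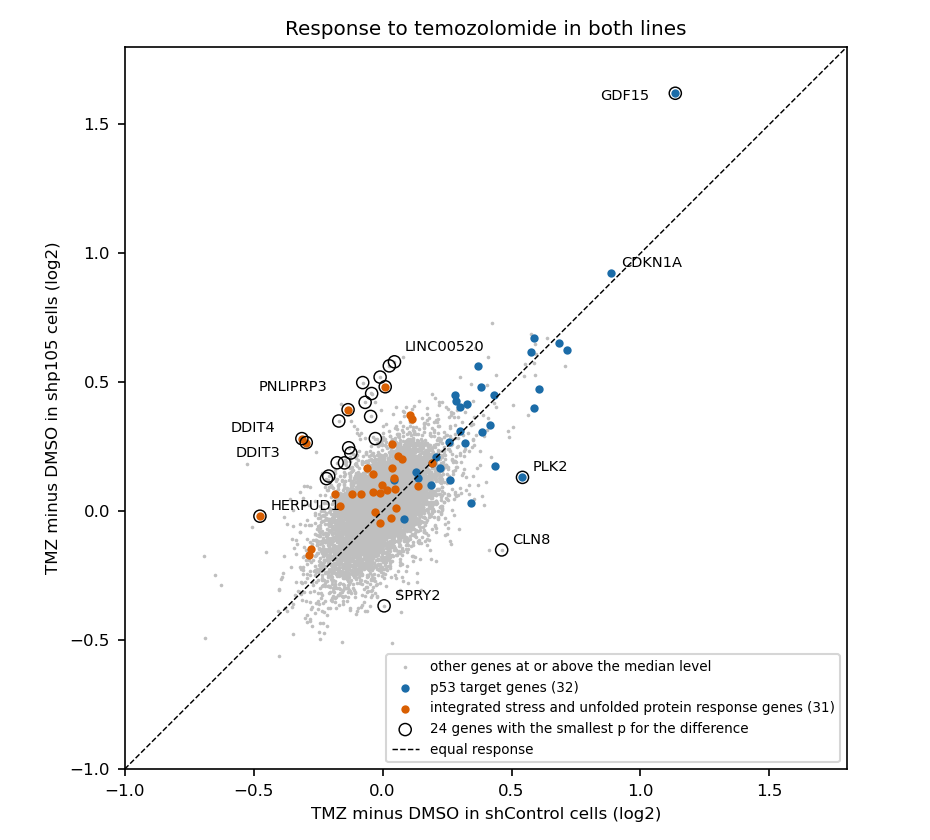
Response to TMZ in shControl cells (horizontal axis, log2) against that in shp105 cells (vertical axis, log2) for the 9888 genes. The dashed line marks equal responses; circles mark the 24 genes with the smallest p for the difference, of which 21 lie above the line and 3 below it, blue points the 32 p53 target genes and orange points the 31 stress response genes.

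The 24 genes with the smallest p had differences of 0.31 to 0.61 in size and adjusted p-values of 0.104 to 0.510, so none of them passed. In 56 of the 9888 genes (0.566%) the 3 TMZ arrays all lay below the 3 DMSO arrays in shControl cells and all above them in shp105 cells, against 0.42% of all genes. The opposite layout was found for 14 (0.142%, against 0.137% of all genes).

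The list of integrated stress response and unfolded protein response genes held 5 of those 24. DDIT4, which encodes the mTORC1 inhibitor REDD1, stood at 10.21, 10.19 and 10.19 in shControl cells with DMSO and at 9.92, 9.98 and 9.76 with TMZ. The shp105 arrays stood at 10.14, 10.13 and 10.16 with DMSO and at 10.38, 10.46 and 10.44 with TMZ. The DMSO arrays of the lines were close, and the TMZ arrays lay below them in one line and above them in the other without overlap. The difference was 0.59 (SE 0.08, adjusted p = 0.104), made of a response of -0.31 in shControl cells and of 0.28 in shp105 cells. Neither response passed by itself, with adjusted p-values of 0.0533 and 0.0524.

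DDIT3, which encodes the pro-apoptotic transcription factor CHOP, had the same layout. Its levels were 9.72, 9.73 and 9.70 with DMSO and 9.40, 9.50 and 9.37 with TMZ in shControl cells. The shp105 levels were 9.65, 9.54 and 9.65 with DMSO and 9.83, 9.97 and 9.83 with TMZ. Again neither pair of groups overlapped. The difference was 0.56 (SE 0.08, adjusted p = 0.136), from responses of -0.30 and 0.27 that did not pass in either line.

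CHAC1, an ATF4 target that degrades glutathione, was measured at 7.44, 7.35 and 7.57 with DMSO and 7.43, 7.26 and 7.27 with TMZ in shControl cells, where the groups overlapped. In shp105 cells the levels were 7.29, 7.22 and 7.41 with DMSO and 7.78, 7.60 and 7.72 with TMZ, and CHAC1 rose by 0.39 (adjusted p = 0.0474). The difference was 0.53 (SE 0.11, adjusted p = 0.381). NUPR1, a stress-induced chromatin protein, was at 9.03, 8.98 and 8.97 and at 8.98, 9.11 and 8.93 in shControl cells with DMSO and TMZ. The shp105 arrays gave 9.84, 9.89 and 9.89 with DMSO and 10.23, 10.53 and 10.31 with TMZ, a rise of 0.48 (adjusted p = 0.0154). Its difference was 0.47 (SE 0.11, adjusted p = 0.475), on a starting level 0.88 higher in shp105 cells.

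HERPUD1, a factor of endoplasmic reticulum protein degradation, showed the reverse composition. It fell by 0.48 in shControl cells (adjusted p = 0.0222), from 10.81, 10.63 and 10.79 to 10.32, 10.25 and 10.24. In shp105 cells the DMSO arrays read 10.53, 10.49 and 10.63 and the TMZ arrays 10.52, 10.43 and 10.65, which overlapped. The difference was 0.46 (SE 0.10, adjusted p = 0.438). A second, dim HERPUD1 probe set at 4.86 gave -0.00, and with the mean of both the difference was 0.23.

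**Figure D2:**
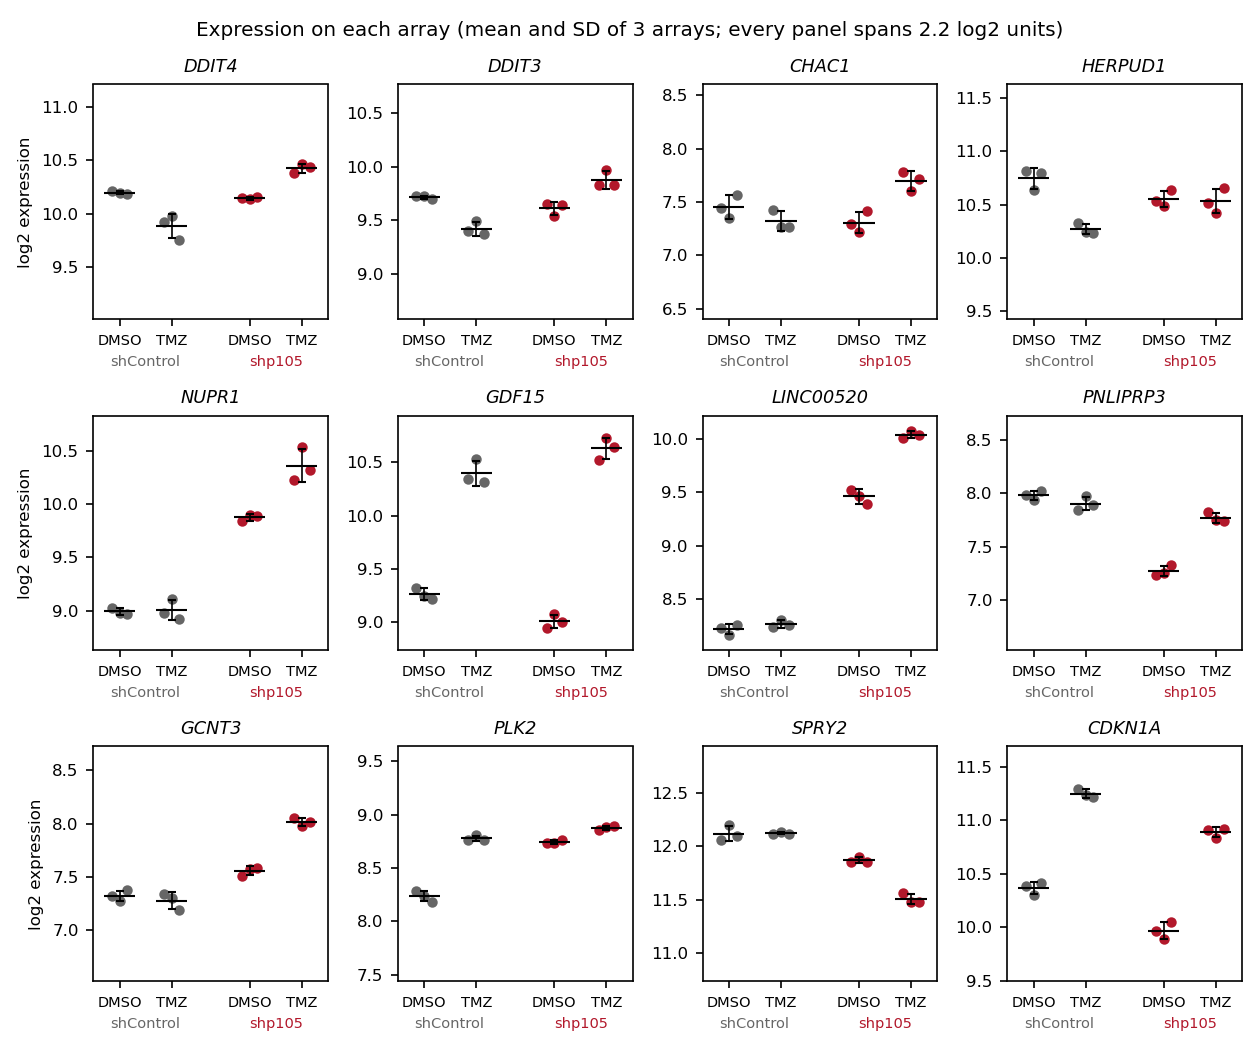
Log2 expression (vertical axes, each spanning the same number of log2 units) on every array for 12 genes, by line and treatment; points are single arrays, horizontal lines the group mean and bars the SD of 3 arrays. DDIT4 and DDIT3 lie lower with TMZ in shControl cells and higher in shp105 cells, whereas CDKN1A lies higher with TMZ by a similar step in both lines.

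All 31 genes of this list were at or above the median level. Their median difference was 0.13, against 0.02 over the 9888 genes, and 26 of 31 were positive, against 58.9% of the 9888. None passed. At an unadjusted p under 0.05 there were 11 higher and 0 lower, where 4.17% of the 9888 genes were higher and 1.44% lower. Besides the 5 above, these were the transcription factors ATF4 (0.23) and ATF3 (0.27), the serine synthesis enzyme PHGDH (0.22), the asparagine synthetase ASNS (0.24), the co-chaperone DNAJB9 (0.25) and the pseudokinase TRIB3 (0.19). Within shp105 cells 5 of the 31 rose with TMZ, CHAC1, NUPR1, PHGDH, ATF3 and ASNS, against 1.06% of the 9888 genes. Within shControl cells 2 fell, HERPUD1 and HSPA5, against 0.192%. The 5 negative values were those of the chaperone HSP90B1 (-0.04), SDF2L1 (-0.04), MANF (-0.06), SESN2 (-0.00) and PPP1R15A (-0.04), the phosphatase subunit that ends the integrated stress response. The chaperone HSPA5 at 0.12 and the folding enzyme PDIA4 at 0.11 lay near the median of the list. For 26 of the 31 genes the 95% interval lay within 1.5-fold.

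The promoters of CHAC1, HERPUD1, DDIT4 and DDIT3 are shown because these are the genes, among the 5 described first, with a RefSeq promoter sequence, and because ATF4 and CHOP dimers are known to bind a C/EBP-ATF response element. The sequences are the 250 bases before the gene start in RefSeq (GRCh38.p14), on the strand of the gene, with any match to the element's core TGATGNAA, read on both strands, in capitals. They span chr15:40953221-40953470 (plus strand), chr16:56931892-56932141 (plus), chr10:72273674-72273923 (plus) and chr12:57520515-57520764 (minus).
CHAC1: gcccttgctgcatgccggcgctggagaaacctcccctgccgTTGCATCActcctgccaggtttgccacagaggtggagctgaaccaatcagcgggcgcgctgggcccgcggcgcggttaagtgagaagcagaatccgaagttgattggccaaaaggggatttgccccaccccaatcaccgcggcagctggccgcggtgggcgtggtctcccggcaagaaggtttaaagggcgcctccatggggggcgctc
HERPUD1: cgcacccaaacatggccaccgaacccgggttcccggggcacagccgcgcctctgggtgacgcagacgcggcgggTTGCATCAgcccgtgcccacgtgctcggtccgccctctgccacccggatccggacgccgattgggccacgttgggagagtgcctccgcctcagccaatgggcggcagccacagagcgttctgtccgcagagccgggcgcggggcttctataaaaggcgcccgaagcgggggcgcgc
DDIT4: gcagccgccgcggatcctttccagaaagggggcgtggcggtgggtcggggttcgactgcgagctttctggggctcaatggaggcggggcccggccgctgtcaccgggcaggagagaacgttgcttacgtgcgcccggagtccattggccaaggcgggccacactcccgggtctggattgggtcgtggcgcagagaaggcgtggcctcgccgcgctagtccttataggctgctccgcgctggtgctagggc
DDIT3: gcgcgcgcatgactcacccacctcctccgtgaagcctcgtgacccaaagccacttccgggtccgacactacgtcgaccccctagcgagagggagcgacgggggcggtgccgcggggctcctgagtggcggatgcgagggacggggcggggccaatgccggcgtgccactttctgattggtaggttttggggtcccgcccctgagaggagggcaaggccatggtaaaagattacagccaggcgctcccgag
CHAC1 held the core on the opposite strand, as TTGCATCA, at -209 to -202 from the gene start, and HERPUD1 the same letters at -176 to -169. No match lay in these windows of DDIT4 and DDIT3. Of the 28 listed genes with a promoter sequence, 5 held the core (17.9%: ASNS, ATF3, CEBPG, CHAC1 and HERPUD1), and of all 27305 genes with a RefSeq promoter 3.89% did. Of the 24 genes with the smallest p, 18 had a sequence and 3 of them held it, CHAC1, HERPUD1 and PTPRD. The endoplasmic reticulum stress response element, CCAAT followed after any 9 bases by CCACG and read the same way, was found in CRELD2, HSP90B1, HSPA5 and XBP1 (4 of 28, 14.3%), in 0 of the 18 and in 0.0916% of all genes. The list was made of known genes of these responses, so its shares of matches are no result of these arrays. A match of letters is a description of the sequence and was not tested as a binding site.

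Of the 32 p53 target genes at or above the median level (35 measured of 38 listed), 25 rose with TMZ on average over the lines, against 3.11% of the 9888 genes, and 0 fell. CDKN1A, the p21 inhibitor of cyclin-dependent kinases, read 10.38, 10.30 and 10.42 with DMSO and 11.30, 11.24 and 11.22 with TMZ in shControl cells. The shp105 arrays read 9.97, 9.89 and 10.04 with DMSO and 10.91, 10.84 and 10.92 with TMZ. It rose by 0.88 and by 0.92, and the difference of 0.04 had a 95% interval from -0.14 to 0.21. These arrays thus bound the CDKN1A difference within 1.5-fold, while the line difference with DMSO was -0.40.

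In shControl cells alone 14 of the 32 p53 targets rose (against 0.445% of the 9888 genes), in shp105 cells alone 16 (against 1.06%), and 0 fell in either. The median difference was -0.00, with a range from -0.41 to 0.49, and 0 passed. At an unadjusted p under 0.05 there was 1 higher and there were 3 lower, against 4.17% and 1.44%. The 95% interval lay within 1.5-fold for 30 of the 32 genes and within 2-fold for all of them. DDB2, a damage sensor of nucleotide excision repair, rose by 0.68 and 0.65 in shControl and shp105 cells, with a difference of -0.03. TP53INP1, a p53 cofactor, rose by 0.72 and 0.63, and MDM2, the ubiquitin ligase of p53, by 0.61 and 0.47. Their differences were -0.09 and -0.13, and the 10 MDM2 probe sets gave -0.35 to 0.07. The signs of the differences of CDKN1A, TP53INP1 and DDB2 turned in 1, 2 and 2 of their alternatives.

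GDF15, a secreted stress cytokine of the TGF-beta family, had the largest rise of all in both lines and the largest positive difference among the p53 targets. It went from 9.32, 9.24 and 9.22 to 10.35, 10.53 and 10.31 in shControl cells, a rise of 1.14. With the p105 hairpin it went from 8.95, 9.08 and 9.00 to 10.52, 10.72 and 10.64, a rise of 1.62. The difference was 0.49 (SE 0.10, adjusted p = 0.381), and the line difference with DMSO, shp105 minus shControl, was -0.25. The 2 other GDF15 probe sets, at 6.29 and 4.25, gave 0.26 and -0.07, and the mean of the 3 gave 0.22.

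PLK2, a polo-like kinase induced by p53, had the largest negative difference of the list. It was measured at 8.29, 8.24 and 8.19 with DMSO and at 8.77, 8.81 and 8.77 with TMZ in shControl cells. Arrays of shp105 cells gave 8.73, 8.74 and 8.76 with DMSO and 8.86, 8.88 and 8.89 with TMZ. It rose in shControl cells by 0.54 (adjusted p = 0.000384), while the 0.13 of shp105 cells did not pass (adjusted p = 0.195). The shp105 arrays with DMSO already lay near the shControl arrays with TMZ. The difference was -0.41 (SE 0.07, adjusted p = 0.138). Next came the pro-apoptotic BCL2 relatives PMAIP1, also called NOXA, at -0.31 and BAX at -0.26. BAX rose in shControl cells by 0.43, and its 0.17 in shp105 cells did not pass.

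**Figure D3:**
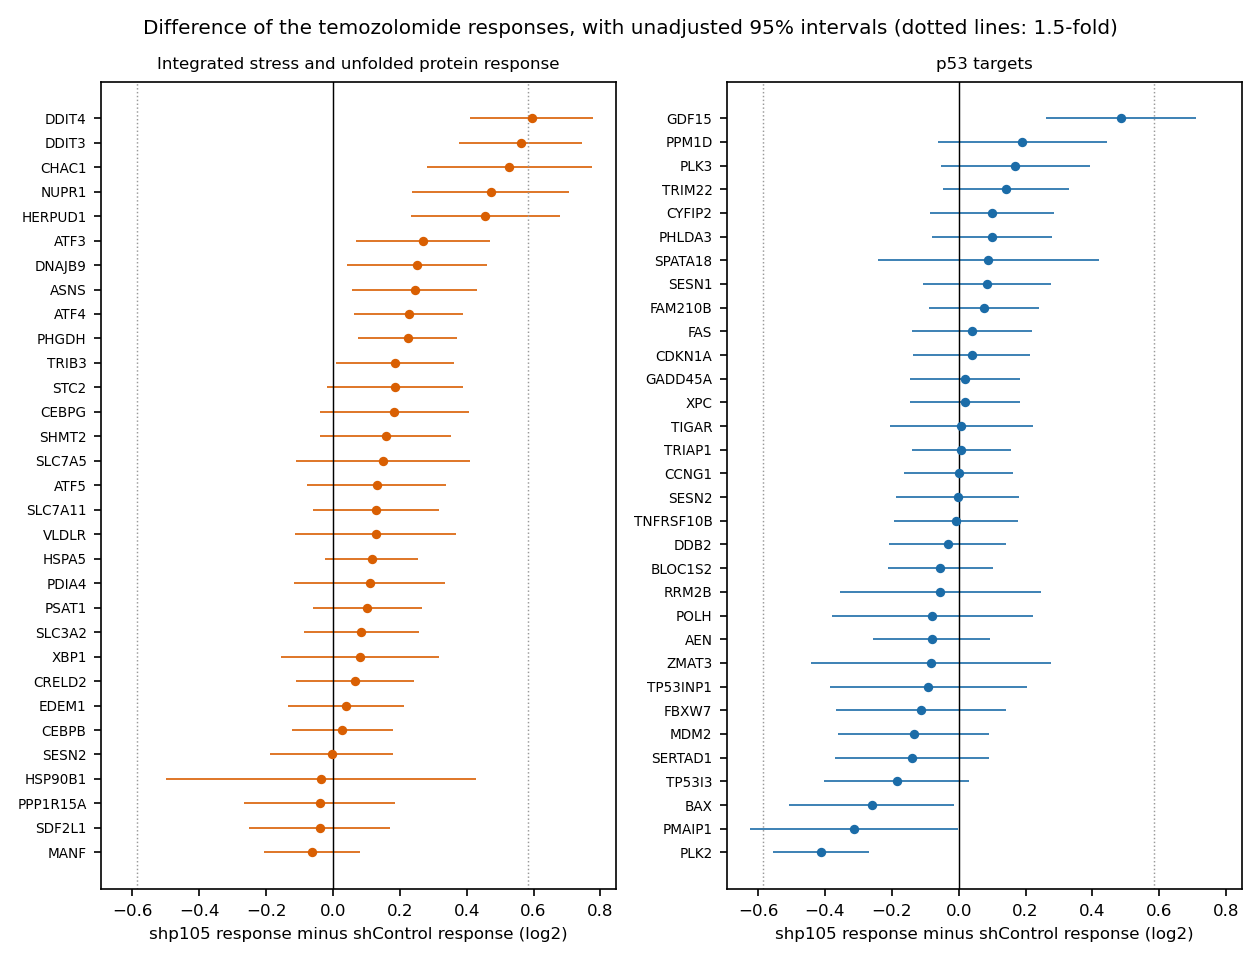
Difference of the TMZ responses, shp105 minus shControl (horizontal axis, log2), with unadjusted 95% intervals, for the 31 stress response genes (left) and the 32 p53 targets (right); dotted lines mark 1.5-fold either way. The stress response genes spread from -0.06 to 0.59 and the p53 targets from -0.41 to 0.49; SESN2 is on both lists.

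Several genes outside both lists had small p-values. LINC00520, a long noncoding RNA, stood at 8.23, 8.16 and 8.26 with DMSO and 8.23, 8.31 and 8.25 with TMZ in shControl cells, which overlapped. In shp105 cells it rose by 0.58 (adjusted p = 0.000901), from 9.52, 9.47 and 9.39 to 10.01, 10.07 and 10.04. The difference was 0.53 (SE 0.07, adjusted p = 0.104), on a DMSO level 1.24 higher in shp105 cells.

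PNLIPRP3, a relative of pancreatic lipase, had the smallest p of all 9888 genes. It read 7.98, 7.93 and 8.02 with DMSO and 7.84, 7.97 and 7.89 with TMZ in shControl cells. In shp105 cells it rose by 0.50 (adjusted p = 0.00194), from 7.24, 7.25 and 7.32 to 7.82, 7.74 and 7.74, which stayed below the shControl level. Its difference was 0.58 (SE 0.08, adjusted p = 0.104).

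GCNT3, a glycosyltransferase of mucin-type glycans, was flat in shControl cells at 7.19 to 7.37 over both treatments. In shp105 cells it rose by 0.46 (adjusted p = 0.00330), from 7.51, 7.58 and 7.59 to 8.05, 7.98 and 8.02, and the difference was 0.50 (adjusted p = 0.138). RAB33A, a small GTPase of vesicle traffic, rose in shp105 cells by 0.42 (adjusted p = 0.00886), and its difference was 0.49 (adjusted p = 0.219). SPINK1, a trypsin inhibitor, rose there by 0.52 with a difference of 0.53, and CA2, carbonic anhydrase II, by 0.56 with a difference of 0.54 (adjusted p = 0.381 for both differences). The lines differed in both genes with DMSO already, by 1.55 for SPINK1 and by -1.61 for CA2, shp105 minus shControl. CA2 had 5.27 to 5.51 in shp105 cells with DMSO, under the median gene.

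Metabolic and transport genes among the 24 were PCK2, the mitochondrial phosphoenolpyruvate carboxykinase, at 0.41, the organic ion transporter SLC22A15 at 0.34 and the nucleoside transporter SLC29A3 at 0.35. ULK1, the kinase that starts autophagy, stood at 0.36. The remaining ones were the long noncoding RNAs GAPLINC (0.52) and DPH5-DT (0.31), NDRG4 (0.38), SH3BGR (0.35) and the receptor phosphatase PTPRD (0.34). With the mean of their probe sets DPH5-DT fell to 0.14 and PTPRD to 0.13. Of these genes, 9 in all, PCK2 and DPH5-DT rose in shp105 cells, by 0.37 and 0.28, and no response of the other 7 passed in either line. The largest difference of all 9888 was that of UCA1, a long noncoding RNA, at 0.71 (SE 0.18, adjusted p = 0.564). Its shControl arrays lay at 4.11 to 5.15, under the median gene, and its shp105 arrays at 11.41 to 11.75.

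Lower responses in shp105 cells were fewer. SPRY2, a feedback inhibitor of receptor tyrosine kinase signalling, read 12.06, 12.20 and 12.10 with DMSO and 12.12, 12.14 and 12.12 with TMZ in shControl cells. In shp105 cells it fell by 0.37 (adjusted p = 0.00924), from 11.86, 11.90 and 11.86 to 11.56, 11.48 and 11.48. The difference was -0.37 (SE 0.07, adjusted p = 0.360).

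EGR1, an immediate early transcription factor, was at 9.76, 9.58 and 9.83 with DMSO and at 9.83, 9.90 and 9.88 with TMZ in shControl cells. Arrays of shp105 cells read 9.01, 9.05 and 9.16 with DMSO and 8.68, 8.72 and 8.91 with TMZ. The difference was -0.45 (adjusted p = 0.527), and the 2 other EGR1 probe sets gave -0.22 and -0.50. The list named for immediate early genes had 25 genes at this level and also holds feedback inhibitors such as SPRY2. Of the 25, 8 were positive, the median was -0.06 and 0 passed. At an unadjusted p under 0.05 there were 5 lower and 0 higher, against 1.44% and 4.17% of the 9888 genes. These were SPRY2, EGR1, IER2 (-0.25), the transcription factor KLF4 (-0.25) and PHLDA1 (-0.22). JUN at -0.12, the ERK phosphatase DUSP6 at -0.12 and DUSP1 at 0.02 did not reach that level.

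CLN8, a membrane protein of the endoplasmic reticulum, had the most negative difference, -0.61 (SE 0.11, adjusted p = 0.227). It rose in shControl cells from 7.20, 6.89 and 7.17 to 7.51, 7.58 and 7.57, and in shp105 cells it read 7.70, 7.65 and 7.73 with DMSO and 7.53, 7.61 and 7.48 with TMZ. That value belongs to 1 of its 5 probe sets. The other 4, at 5.50 to 7.18, gave -0.23 to 0.03, and the mean of all 5 gave -0.21.

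The NF-kB pathway is the one named for these lines. Of 19 NF-kB target genes at or above the median level (34 measured), 11 were positive and the median was 0.08. None passed, and at an unadjusted p under 0.05 there were 1 higher and 3 lower, against 4.17% and 1.44% of the 9888 genes. The higher one was CYLD, a deubiquitinase that restrains the pathway, at 0.20. Its 7 probe sets ran from -0.44 to 0.22, and their mean gave 0.03. The lower ones were PLAU, the urokinase, at -0.20, IL1B, interleukin-1 beta, at -0.25 and PTX3, a soluble pattern receptor, at -0.25. CXCL8, a neutrophil chemokine, stood at 0.12 (95% interval -0.25 to 0.49), and with the mean of its probe sets at 0.42.

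IL1B read 10.43 to 10.62 in the 6 shControl arrays, 7.83, 7.83 and 7.73 in shp105 cells with DMSO and 7.51, 7.70 and 7.46 with TMZ. Of the 21 pathway components 14 were positive, with a median of 0.02, and all 21 intervals lay within 1.5-fold. RELA, the main activating subunit, was at -0.03 (95% interval -0.19 to 0.13), a sign that turned in 1 of 22 alternatives. The inhibitor NFKBIA was at -0.09 and the kinase subunit IKBKB at 0.05.

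Among 18 interferon genes 15 were positive and the median was 0.13, with 2 higher at an unadjusted p under 0.05, IFI6 (0.27) and IFI35 (0.23), against 4.17% of the 9888 genes, and 0 passing. IFIT1 stood at 0.20 and ISG15, the ubiquitin-like modifier, at 0.07.

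Replication-dependent histone genes had the highest median of the 24 lists, 0.24, but rested on 5 genes. H2BC12 fell in shControl cells by 0.69, from 12.31, 12.41 and 12.32 to 11.62, 11.63 and 11.72, and in shp105 cells by 0.49, from 9.70, 9.64 and 9.70 to 9.17, 9.27 and 9.13. Its difference was 0.20 (adjusted p = 0.769). H2BC6 fell in shControl cells by 0.65, and its -0.25 in shp105 cells did not pass. The differences of H2BC6, H2BC5 and the linker histone H1-2 were 0.40, 0.52 and 0.24. All shp105 arrays read H2BC6 at 5.63 to 6.17, under the median gene, against 7.36 to 8.23 in shControl cells. Members of this family are nearly identical in sequence, so a probe set may read several of them. A second H2BC5 probe set gave 0.01.

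The pregnancy-specific glycoprotein genes PSG7 and PSG1 rose in shp105 cells, by 0.60 and 0.45, with differences of 0.52 and 0.26, again in a family of near-identical copies. The other 2 at this level, PSG4 and PSG9, gave 0.11 and -0.11.

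**Figure D4:**
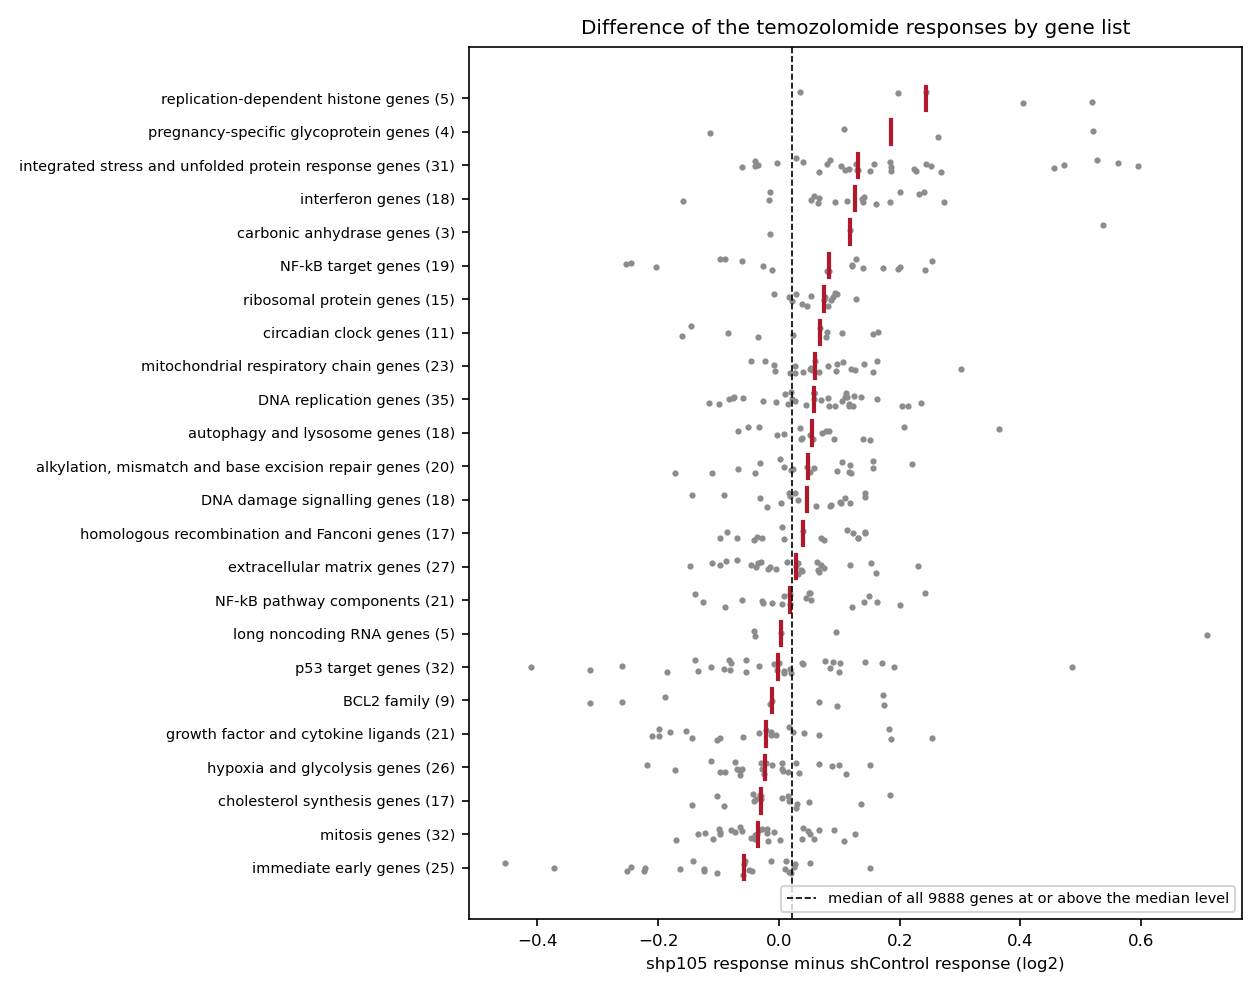
Difference of the TMZ responses (horizontal axis, log2) for each gene of the 24 lists at or above the median level (points, number of genes in brackets), with the list's median (red bar) and the median of all 9888 genes (dashed line, 0.02). List medians run from -0.06 for immediate early genes to 0.24 for histone genes.

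Of the 3 carbonic anhydrase genes, CA2, CA12 (0.12) and CA13 (-0.01), 2 were positive, with a median of 0.12. The medians of the remaining lists ran from -0.03 to 0.07. DNA replication genes had a median of 0.06 (27 of 35 positive). RRM2, the ribonucleotide reductase subunit, rose in shp105 cells by 0.42, against 0.22 in shControl cells, which did not pass, and its difference was 0.20. A second RRM2 probe set of nearly the same level (12.05 against 12.50) gave -0.04, and the mean of both 0.08. Mitosis genes had a median of -0.03 (10 of 32 positive), with CCNB1, the mitotic cyclin, at -0.17. Repair genes for alkylated, mismatched and damaged bases had a median of 0.05, with the ligase LIG3 at 0.22. With the mean of its 6 probe sets, which ran from -0.23 to 0.22, LIG3 stood at 0.01. Recombination and Fanconi genes had 0.04, with RAD54L at 0.14, and DNA damage signalling genes 0.05, with the checkpoint kinase CHEK2 at 0.14. The 95% intervals of the 87 genes in 3 of these lists (replication, mitosis, base repair) lay within 1.5-fold in each list: 35 of 35, 32 of 32 and 20 of 20.

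Autophagy and lysosome genes had a median of 0.05, with 3 of 18 higher at an unadjusted p under 0.05, ULK1, WIPI1 (0.21) and the cholesterol exporter NPC1 (0.15). Medians of respiratory chain and ribosomal protein genes were 0.06 and 0.07, with 19 of 23 and 14 of 15 positive; NDUFA1, a subunit of complex I, stood at 0.30 and RPL19 at 0.13. Growth factor ligands (-0.02, TGFA at -0.20), hypoxia and glycolysis genes (-0.02, EGLN1, an oxygen-sensing hydroxylase, at -0.22) and matrix genes (0.03, VCAN at -0.15) lay close to zero. So did the medians of cholesterol synthesis genes (-0.03, DHCR7 at 0.18), clock genes (0.07, BHLHE41 at 0.16) and the BCL2 family (-0.01, BAD at 0.17). The 9 BCL2 family genes ran from -0.31 (PMAIP1) to 0.17 (BID). At an unadjusted p under 0.05, 1 of them was higher and 2 were lower, against 4.17% and 1.44% of the 9888 genes. With the mean of their probe sets EGLN1 gave -0.06 and BHLHE41 0.03. In none of the 24 lists did a gene pass. In 5 lists the sign of the median turned under at least 1 alternative: p53 targets, the BCL2 family, cholesterol synthesis, matrix and long noncoding RNA genes.

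Whether any gene passed depended on the genes tested together and on how the spread was modelled. With the fit and adjustment restricted to the 9888 genes, 8 passed: DDIT4, LINC00520 and PNLIPRP3 (adjusted p = 0.00782 each), DDIT3 and GCNT3 (0.0109 each) and RAB33A (0.0244) with a higher response in shp105 cells, and PLK2 (0.0109) and CLN8 (0.0436) with a lower one. With a trended, robust prior for the variance and all genes tested, 12 passed. Those were DDIT4 (0.00036), DDIT3, LINC00520, PNLIPRP3, GAPLINC, GDF15, HERPUD1, NUPR1 and GCNT3 as higher and SPRY2, CLN8 and PLK2 as lower. Restricted to the 4944 genes with the highest levels, DDIT4, LINC00520, DDIT3 and SPRY2 passed. In fits added after the data had been seen, each array in turn was left out of the restricted fit, and DDIT3, DDIT4, GCNT3, LINC00520 and PNLIPRP3 passed in 12 of 12 such fits, PLK2 in 11, RAB33A in 4 and CLN8 in 2. Over all alternatives DDIT4 ran from 0.53 to 0.64 and DDIT3 from 0.51 to 0.60. With trend and robust fitting and 1 array left out, DDIT3, DDIT4, LINC00520 and SPRY2 passed in 12 of 12 fits, PNLIPRP3 in 11, GAPLINC, GDF15 and HERPUD1 in 6, NUPR1 in 4, CLN8 and PLK2 in 3 and GCNT3 in 1. In the alternatives that give 1 value per gene, none of the 24 genes changed sign. Of the 5 among them with several probe sets, only DPH5-DT had all on the same side of zero; CLN8, GDF15, HERPUD1 and PTPRD did not.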

How the data were processed

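RNA was measured on 12 arrays, 3 per group. The authors deposited log2 expression values per probe set; RMA and Affymetrix Power Tools made them, per the submitters' processing notes, with versions and probe annotation release not given in the sources used here. RMA shrinks differences of dim probes, and the number of arrays limits the precision. Of 54675 probe sets, 41097 had 1 gene symbol in GEO's platform annotation, 1801 had several and 11777 none; symbols were updated through RefSeq (GRCh38.p14), where 54 Entrez identifiers were absent. For each of 19775 genes the probe set with the highest mean was used. Of the 25 named genes at or above the median level that had several probe sets, 13 had all of them on the same side of zero.

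A single linear model with 4 group means and all 12 arrays (limma 3.58.1, lmFit and eBayes, in R 4.3.3 with version 1.17.8 of the data.table package) gave the 2 responses, their average and their difference. Tests were 2-sided, with Benjamini-Hochberg adjustment over 19775 genes, and genes with adjusted p under 0.05 are said to pass, rise or fall. Errors are standard errors of that fit, and intervals are 95%. The fit was also run on simulated arrays with planted differences. How often it recovered differences of the sizes described here is not reported, so that run bounds none of them. Promoters were searched and plots drawn with Python 3.11.15, pandas 2.3.3, numpy 2.4.6 and matplotlib 3.10.9.

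Named are NFKB1; the 24 genes with the smallest p for the difference, as no gene passed; the gene with the smallest p of each of 24 lists (602 genes, 540 measured, 437 at or above the median level); CDKN1A, MDM2, RELA, CA2, UCA1, IL1B, CXCL8, GDF15 and EGR1; and the strongest average responders. Others were chosen after their values were seen. The genes, lists and tests were chosen with earlier results of these data known. The alternatives were another gene summary, restricted testing, scaling, array weights, other variance models, the replicate number as a block, the spike-in level as a covariate, other thresholds, the 2 compared groups alone and each array left out.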

Additional observations from a re-analysis of the deposited data

How the results depend on the processing

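With each probe set tested on its own, the difference of responses passed for 0 of the probe sets at or above the level of the median gene. It passed for 0 of the 9888 genes with probe set means per gene, median centring, quantile normalization and array weights. It also passed for 0 of them with the replicate block, the spike-in covariate, thresholds of 0.01 and 0.10, and each array left out. It passed for 8 genes when these genes alone were tested, 4 among the 4944 with the highest levels, 12 with trend and robust fitting and 1 in the ordinary linear model. In added fits over these genes alone it passed for 7 with the replicate block, 5 with the spike-in covariate, 10 after quantile normalization, 7 after median centring and 7 with probe set means; over all fits with an array left out the count ran from 0 to 14. After removal of the group means, 5 of 18 same-number pairs of arrays correlated over 0.1 (range -0.23 to 0.23). Of the 12 arrays, 5 matched their own number best. With 3 arrays per group, these values do not settle whether the replicate numbers pair the arrays.

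Of the 9888 genes, the 0.637% in the shControl response became 0.405% with probe set means, 0.295% with each probe set, 2.94% with these genes alone tested (6.61% of the highest 4944), 0.364% with median centring, 1.27% with array weights, 3.36% with trend and robust fitting, 1.1% in the ordinary linear model, 0.273% with the replicate block, 0% with the spike-in covariate, 0.152% and 1.06% at 0.01 and 0.10, and 0.172% with the 2 groups alone (0.152% to 0.647% without 1 array). The 1.44% of the shp105 response became 0.469% with each probe set, 9.14% (16.4%) restricted, 0.920% with weights, 8.59% with trend, 3.06% ordinary, 0.708% with the replicate block, 0.121% with the spike-in covariate, 0.364% and 4.89% at the other thresholds and 0.0202% with its groups alone (0.425% to 1.54%). The 5.84% of the average became 3.17% with probe set means, 2.73% with each probe set, 17.6% (26.3%) restricted, 15.4% with trend, 2.98% with the replicate block, 0.0405% with the spike-in covariate, and 1.16% and 11.9% at the other thresholds (1.87% to 5.56% without 1 array). Shares with each probe set are of the probe sets at or above the level of the median gene, not of the 9888 genes. The cause of these shifts was not tested. Intervals within 1.5-fold numbered 9572 to 9670 and within 2-fold 9879 to 9884 without 1 array. Among the genes at an unadjusted p under 0.05 (342 to 884), 74.4% were higher, 65.0% after quantile normalization and 62.0% to 83.5% without 1 array (without shControl_DMSO replicates 1 and 2). Scaling moved the median difference between 0.01 and 0.02.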

Other observations

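Below the median level no gene passed for the difference of responses either (0 of 9887; 712 at an unadjusted p under 0.05). The 5 with the smallest p were KRT7, a simple epithelial keratin, at 0.75 (adjusted p = 0.138), the cation channel TRPC4 at 0.54, SPAG8 at 0.74, the death ligand TNFSF10 at -0.46 and AIF1L at -0.56. KRT7 read 5.24, 5.19 and 5.28 with DMSO and 4.99, 4.79 and 4.73 with TMZ in shControl cells, and 5.69, 5.80 and 5.89 and then 6.06, 6.09 and 6.27 in shp105 cells, with no overlap in either line. TNFSF10 stood at 3.04 to 3.45 on all 12 arrays. CHI3L1, a mesenchymal glioma marker also under the median level in its mean over all arrays, gave 0.75 (adjusted p = 0.510). Its shControl arrays lay at 4.33 to 4.99 and its shp105 arrays at 6.73 to 7.44. Each of these differences belongs to 1 probe set. Others of a similar level had the opposite sign: -0.09 (SE 0.18) for KRT7, -0.10 (SE 0.19) for TRPC4, 0.09 (SE 0.12) for AIF1L and -0.23 (SE 0.14) for CHI3L1. None of those reached an unadjusted p of 0.05 in the fit of all probe sets. SOX4 gave -0.18, and its 6 probe sets ran from -0.18 to 0.51. The probe set used read 2.73 to 3.14 on the shControl arrays and 8.74 to 9.00 on the shp105 arrays. SOX4 thus lay under the median level only as a mean of both lines.

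S1PR3, a sphingosine-1-phosphate receptor, rose with TMZ in both lines, by 0.64 and 0.67. Its difference of 0.04 turned sign in 3 of 21 alternatives. IFITM10 fell in both lines, by 0.40 and 0.56, with a difference of -0.16. The 3 IFITM10 probe sets ran from -0.16 to 0.06. Also among the strongest average responders, MIF-AS1, SLC25A43 and H2BC12L had differences of -0.15, 0.02 and 0.34. The sign turned in 2 of 21 alternatives for MIF-AS1 and in 8 of 22 for SLC25A43.

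The shape of the layout limits these values. A difference of 2 responses combines 4 group means, so its standard error exceeds that of a single response. A gene that did not pass is not shown to respond alike in both lines; only the intervals bound its difference. The lines differ in many genes with DMSO, and hairpin, clone and line cannot be told apart. One dose and 1 time were measured. The part of the spike-in and ACTB 3' minus 5' values in single differences was not tested.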
